A study of Homo sapiens with 6 samples.

Results

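NRF2 (gene NFE2L2) is a transcription factor of the oxidative stress response. Under resting conditions KEAP1 presents it to a CUL3 ubiquitin ligase, which marks it for destruction. When electrophiles or oxidants modify KEAP1, NRF2 accumulates, pairs with a small MAF protein and binds antioxidant response elements near genes for glutathione synthesis, thioredoxin recycling, quinone reduction and heme degradation. In liver cells these genes also serve the handling of drugs and other foreign compounds. The 9 NRF2 target genes described here were listed by name. No measured value enters the rule, but the list was drawn up with earlier results of these data known. They are NQO1, HMOX1, GCLC, GCLM, SLC7A11, TXNRD1, SRXN1, OSGIN1 and ME1. Of these, 8 were measured among 29153 genes, and ME1, a malic enzyme that supplies NADPH, was not analysed here.

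HepG2 cells, an established line from a human liver tumour, had received lentivirus with a hairpin against the long noncoding RNA LINC01977 (sh-LINC01977, hairpin sh3 in the labels) or with a control hairpin (sh-NC). Cells of both groups were collected 72 h after lentivirus was added, with 3 libraries in each group, so both groups carry a lentiviral insertion and differ in the hairpin. Only 1 hairpin sequence against LINC01977 is represented, and no untreated or oxidant-treated cells were part of the comparison. It asks how the messenger RNA levels of the NRF2 targets differ between knockdown and control cells. Nothing in the labels says that the libraries came from separate cultures, and p-values then measure the spread between libraries, which may be technical.

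The total count was between 49929024 and 60441515 per library, and Pearson correlations of log2 CPM were 0.978 to 0.981 within a group and 0.969 to 0.973 across groups. LINC01977 itself was close to undetected, with sh-NC counts of 4, 0 and 16 and sh-LINC01977 counts of 0, 0 and 4. A reduction was not detectable at these counts (edgeR adjusted p = 0.58). The paper reports that knockdown in HepG2 was checked by qRT-PCR, and whether that check covers these libraries is not given. Genes were called at an edgeR adjusted p under 0.05. Of 7 hepatocyte and HepG2 markers, all were measured and 5 were called lower in the knockdown, beside 8.07% of all tested genes. Their summed level was 4009 to 4369 FPKM in sh-NC and 2841 to 2896 FPKM in sh-LINC01977. FPKM are fragment counts scaled to a length per gene and to library total. Of 6 stromal markers, 3 were measured, with sums of 0.421 to 0.714 FPKM in sh-NC and 1.49 to 1.92 FPKM in sh-LINC01977. COL3A1 and THY1 were under 0.1 FPKM, and PDGFRB carried nearly all of the sum and was called higher (edgeR adjusted p = 0.0062). Endothelial markers (3 of 4 measured) summed to 0.266 to 0.441 FPKM and to 0.220 to 0.315 FPKM. Leukocyte markers (3 of 4 measured) summed to 613 to 624 FPKM and to 528 to 544 FPKM. Almost all of it came from LYZ, which was called lower (edgeR adjusted p = 0.0054), while PTPRC was near 0 in both groups. The part of these shifts in the results below was not tested. All 6 libraries are labelled HepG2, a single line. In bulk RNA, a shift in part of the cells and a shift in all cells cannot be told apart.

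The antioxidant response element is bound through a short core. To place the measured genes beside it, the core TGACNNNGC and its reverse complement GCNNNGTCA were searched on both strands of RefSeq promoter windows (GRCh38) that run from 250 bases before to 50 bases after each start. The tables hold 7 windows for 6 of the genes. Windows of GCLM and TXNRD1 held a match and those of NQO1, GCLC, SRXN1 and OSGIN1 held none, against 13.3% of 35116 windows in the genome. The 5 windows printed here are those with a match and those of OSGIN1 and SRXN1, which were lower in the knockdown. All are written in the direction of transcription, with the matched letters in capitals. They lie at chr1:93909381-93909680 on the minus strand (GCLM), at chr12:104215529-104215828 and chr12:104286782-104287081 on the plus strand (TXNRD1), at chr16:83952990-83953289 on the plus strand (OSGIN1) and at chr20:653151-653450 on the minus strand (SRXN1).
GCLM: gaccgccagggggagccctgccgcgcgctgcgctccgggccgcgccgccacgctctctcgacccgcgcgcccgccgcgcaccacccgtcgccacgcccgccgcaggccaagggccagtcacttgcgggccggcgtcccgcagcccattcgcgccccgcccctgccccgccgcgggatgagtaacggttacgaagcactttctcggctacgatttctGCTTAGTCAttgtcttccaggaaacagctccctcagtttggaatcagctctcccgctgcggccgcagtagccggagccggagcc
TXNRD1, upstream start: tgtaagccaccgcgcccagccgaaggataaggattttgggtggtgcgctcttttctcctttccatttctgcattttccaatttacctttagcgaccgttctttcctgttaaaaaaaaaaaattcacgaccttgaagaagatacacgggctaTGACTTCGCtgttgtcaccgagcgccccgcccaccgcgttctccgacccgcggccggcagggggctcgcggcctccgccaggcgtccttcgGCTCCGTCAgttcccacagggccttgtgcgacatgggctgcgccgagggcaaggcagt
TXNRD1, downstream start: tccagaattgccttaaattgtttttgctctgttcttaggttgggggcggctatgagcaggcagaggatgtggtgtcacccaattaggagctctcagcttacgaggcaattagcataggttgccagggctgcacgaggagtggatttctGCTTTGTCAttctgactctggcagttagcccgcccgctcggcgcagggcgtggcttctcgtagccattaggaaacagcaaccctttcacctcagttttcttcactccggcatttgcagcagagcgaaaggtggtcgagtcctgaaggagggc
OSGIN1: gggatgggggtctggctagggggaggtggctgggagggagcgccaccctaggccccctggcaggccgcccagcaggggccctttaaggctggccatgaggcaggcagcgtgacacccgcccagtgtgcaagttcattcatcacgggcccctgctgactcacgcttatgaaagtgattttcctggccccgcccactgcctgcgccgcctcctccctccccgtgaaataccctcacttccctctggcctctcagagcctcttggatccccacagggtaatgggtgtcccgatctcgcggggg
SRXN1: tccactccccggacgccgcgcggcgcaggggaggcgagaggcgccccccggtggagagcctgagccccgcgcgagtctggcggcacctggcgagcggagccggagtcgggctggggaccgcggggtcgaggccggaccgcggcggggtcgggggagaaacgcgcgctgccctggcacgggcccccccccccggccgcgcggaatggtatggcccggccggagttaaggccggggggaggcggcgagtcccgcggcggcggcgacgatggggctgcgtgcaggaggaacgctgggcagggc
The GCLM match begins 34 bases before the start. The upstream TXNRD1 window holds 2 matches, beginning 99 and 8 bases before its start, and the downstream window holds 1, beginning 102 bases before its start. The OSGIN1 window lies inside the gene's interval in the deposited table, downstream of that interval's first base. A match is a description of letters, and the absence of one says only that these letters are not in this window.

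HMOX1, OSGIN1 and SRXN1 were lower in the knockdown, and none of the 8 measured genes was higher. HMOX1 fell by 0.84 on the log2 scale and OSGIN1 by 0.83, while SRXN1 fell by 0.27. Levels of NQO1, GCLC, GCLM, SLC7A11 and TXNRD1 did not pass the test. A gene was called at an adjusted p under 0.05 (edgeR's quasi-likelihood test, Benjamini-Hochberg adjustment over 13452 genes), and 3 of 8 genes were called against 15.1% of all tested genes. By direction, 3 of 8 were called lower against a background of 8.07%, and 0 were called higher against 7.05%, with 4 of the 8 at an unadjusted p under 0.05 (30.5% of tested genes) and 4 called by DESeq2 (21.1% of tested genes). The median log2 fold change of the 8 was -0.24, beside -0.0010 over all tested genes. At the threshold used by the study, a fold change of at least 2 with an unadjusted p of at most 0.05, 0 of the 8 passed, against 2.6% of tested genes. The libraries of the groups did not overlap in CPM, which are counts scaled to library size, for 4 of the 8 genes, HMOX1, OSGIN1, SRXN1 and GCLC, against 37.1% of tested genes.

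**Figure D1:**
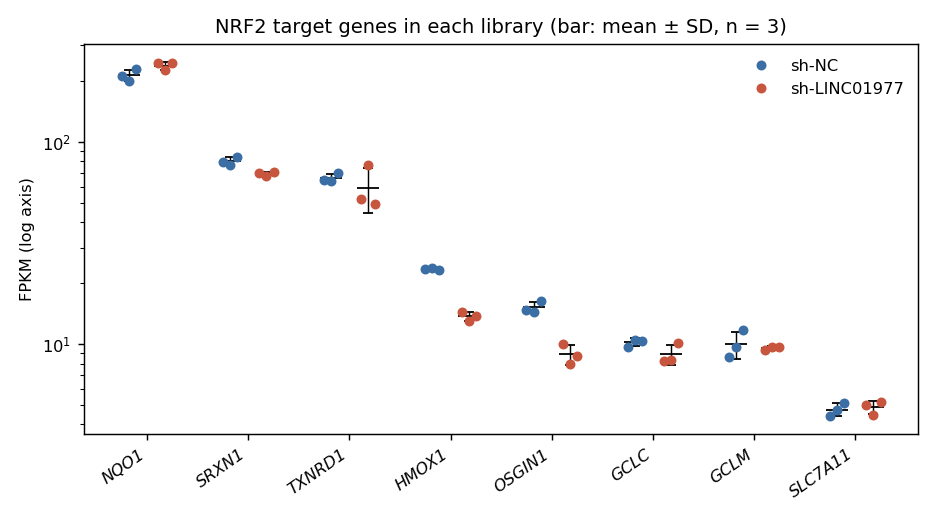
FPKM of the 8 measured NRF2 target genes in each library (log axis), with sh-NC in blue and sh-LINC01977 in red; black bars are the mean ± SD of 3 libraries. The groups lie apart for HMOX1, OSGIN1 and SRXN1, and 1 sh-LINC01977 library of TXNRD1 lies above all 3 sh-NC libraries at 76.6 FPKM.

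HMOX1 (ENSG00000100292, chromosome 22, 35380361 to 35394214, plus strand) encodes heme oxygenase 1, the inducible enzyme that opens the heme ring to biliverdin, iron and carbon monoxide. Its level was 23.5, 23.7 and 23.3 FPKM in sh-NC and 14.4, 13.0 and 13.8 FPKM in sh-LINC01977. The coefficient of variation of the sh-NC libraries was 0.886%, and the highest knockdown library was well below the lowest control. The fitted log2 fold change was -0.84 ± 0.056 (SE, n = 3 per group, edgeR adjusted p = 0.00069), which puts the control 1.79-fold above the knockdown. No other gene of the annotation overlaps it among those listed.

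OSGIN1 (ENSG00000140961, chromosome 16, 83948282 to 83966332, plus strand) encodes an oxidative stress induced growth inhibitor. It measured 14.8, 14.5 and 16.2 FPKM in sh-NC and 10.02, 7.98 and 8.71 FPKM in sh-LINC01977. All 3 knockdown libraries lay below all 3 controls. Its log2 fold change was -0.83 ± 0.094 (SE, n = 3 per group, edgeR adjusted p = 0.0028), a control level 1.78-fold above the knockdown. Across the 6 libraries OSGIN1 was the gene of the 8 with the profile nearest to that of HMOX1, at a root mean square distance of 0.0796 in centred log2 CPM, beside 0.292 for SRXN1 and 0.472 for NQO1. This distance includes the difference between the groups, so genes with a like fold change lie near each other. Variation within the groups was not compared. Over 11477 genes outside the lists, each averaging 1 FPKM or more, the 3 nearest to HMOX1 were COASY (0.0329), HSD17B2 (0.0438) and DGKK (0.0485). COASY encodes an enzyme of coenzyme A synthesis, HSD17B2 a steroid dehydrogenase and DGKK a diacylglycerol kinase.

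SRXN1 and TXNRD1 serve the thioredoxin and peroxiredoxin system. SRXN1 (ENSG00000271303, chromosome 20, 646615 to 653370, minus strand) encodes sulfiredoxin, which repairs overoxidised peroxiredoxins. It measured 79.9, 76.9 and 84.0 FPKM in sh-NC and 70.1, 68.05 and 71.1 FPKM in sh-LINC01977. The groups did not overlap, and the difference was small beside that of HMOX1, with a log2 fold change of -0.27 ± 0.045 (SE, n = 3 per group, edgeR adjusted p = 0.011). A gene on the same strand, AL121758.1, overlaps it at a mean of 0.287 FPKM.

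TXNRD1 (ENSG00000198431, chromosome 12, 104215779 to 104350305, plus strand) encodes the cytosolic thioredoxin reductase, which returns thioredoxin to its reduced form with NADPH. It measured 64.4, 63.8 and 69.9 FPKM in sh-NC and 52.0, 76.6 and 49.4 FPKM in sh-LINC01977. Knockdown libraries 1 and 3 lay below every control and library 2 above every control, from counts of 23159, 38220 and 20240. With all libraries the log2 fold change was -0.21 ± 0.17 (SE, n = 3 per group, edgeR adjusted p = 0.45). Without sh-LINC01977 replicate 2 it was -0.45 (edgeR adjusted p = 0.014). Within the knockdown the highest library was 1.60 times the lowest in CPM, a ratio that 8.42% of the 7807 tested genes with a mean count of at least 1000 reached in one of the groups. RPL18AP3, a processed pseudogene inside the TXNRD1 interval on the same strand, was level at 132 to 140 FPKM in the 6 libraries.

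None of the 3 genes for glutathione synthesis and cystine uptake was called by edgeR. GCLC (ENSG00000001084, chromosome 6, 53497341 to 53616970, minus strand) encodes the catalytic subunit of glutamate cysteine ligase, the rate-limiting enzyme of glutathione synthesis. Its level was 9.66, 10.5 and 10.4 FPKM in sh-NC and 8.23, 8.38 and 10.1 FPKM in sh-LINC01977. In FPKM the highest knockdown library reached into the control range, while in CPM the groups did not overlap. The log2 fold change was -0.26 ± 0.081 (SE, n = 3 per group, edgeR adjusted p = 0.079). GCLC was called by DESeq2 (adjusted p = 0.030) and by edgeR without sh-LINC01977 replicate 3, where the log2 fold change was -0.35 (adjusted p = 0.027). AL033397.1, a long noncoding RNA on the same strand, overlaps GCLC at a mean of 7.06 FPKM.

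GCLM (ENSG00000023909, chromosome 1, 93885205 to 93909456, minus strand) encodes the modifier subunit of the same ligase. It measured 8.62, 9.67 and 11.7 FPKM in sh-NC and 9.38, 9.65 and 9.66 FPKM in sh-LINC01977. The knockdown libraries lay inside the control range. The log2 fold change was -0.12 with a 95% confidence interval of -0.37 to 0.13 (edgeR adjusted p = 0.47). SLC7A11 (ENSG00000151012, chromosome 4, 138164097 to 138242349, minus strand) encodes the cystine carrying subunit of the system xc- exchanger, which brings in cystine for glutathione synthesis. It measured 4.41, 4.70 and 5.10 FPKM in sh-NC and 5.01, 4.47 and 5.14 FPKM in sh-LINC01977. The groups overlapped, and the log2 fold change was -0.02 with a 95% confidence interval of -0.20 to 0.15 (edgeR adjusted p = 0.87). Its sign depends on the scaling and was positive, at 0.043, with library totals.

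NQO1 (ENSG00000181019, chromosome 16, 69706996 to 69726951, minus strand) encodes a quinone reductase that is widely read as an indicator of NRF2 activity. It measured 211, 201 and 229 FPKM in sh-NC and 245, 226 and 244 FPKM in sh-LINC01977. Knockdown library 2 lay inside the control range and the other knockdown libraries above it. It was the only gene of the 8 with a positive estimate in the edgeR fit, a log2 fold change of 0.10 ± 0.055 (SE, n = 3 per group, edgeR adjusted p = 0.29) with a 95% confidence interval of -0.04 to 0.23. An antisense gene, AC092115.2, overlaps NQO1 at a mean of 1.90 FPKM, and the sources used here do not give whether counting used strand.

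Levels were ranked between genes in FPKM, which depends on the length assigned to each gene. These lengths are not given in the sources used here. In CPM, which is not scaled to length, the sh-NC mean of GCLC (109) lay above those of HMOX1 (71.2), GCLM (68.1) and OSGIN1 (66.1). The order and the sums below therefore hold for FPKM only. In sh-NC the order was NQO1 (213 ± 14.1 FPKM, SD, n = 3), SRXN1 (80.3 ± 3.54 FPKM), TXNRD1 (66.0 ± 3.40 FPKM), HMOX1 (23.5 ± 0.208 FPKM), OSGIN1 (15.2 ± 0.938 FPKM), GCLC (10.2 ± 0.469 FPKM), GCLM (9.98 ± 1.55 FPKM) and SLC7A11 (4.73 ± 0.35 FPKM). Every neighbouring pair in this order was apart in all libraries except GCLC and GCLM, whose libraries overlapped. In sh-LINC01977 the range of SRXN1 lay inside that of TXNRD1, and OSGIN1 (8.90 ± 1.03 FPKM) came down among GCLM and GCLC, so that these 3 genes could not be ordered. HMOX1 at 13.7 ± 0.689 FPKM remained above them. The summed level of the 8 genes was 423 ± 23.3 FPKM in sh-NC and 413 ± 1.23 FPKM in sh-LINC01977. NQO1 supplied 50.4% ± 0.677 of this sum in sh-NC and 57.7% ± 2.66 in sh-LINC01977. Without NQO1 the sum was 210 ± 9.36 FPKM against 175 ± 11.3 FPKM.

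**Figure D2:**
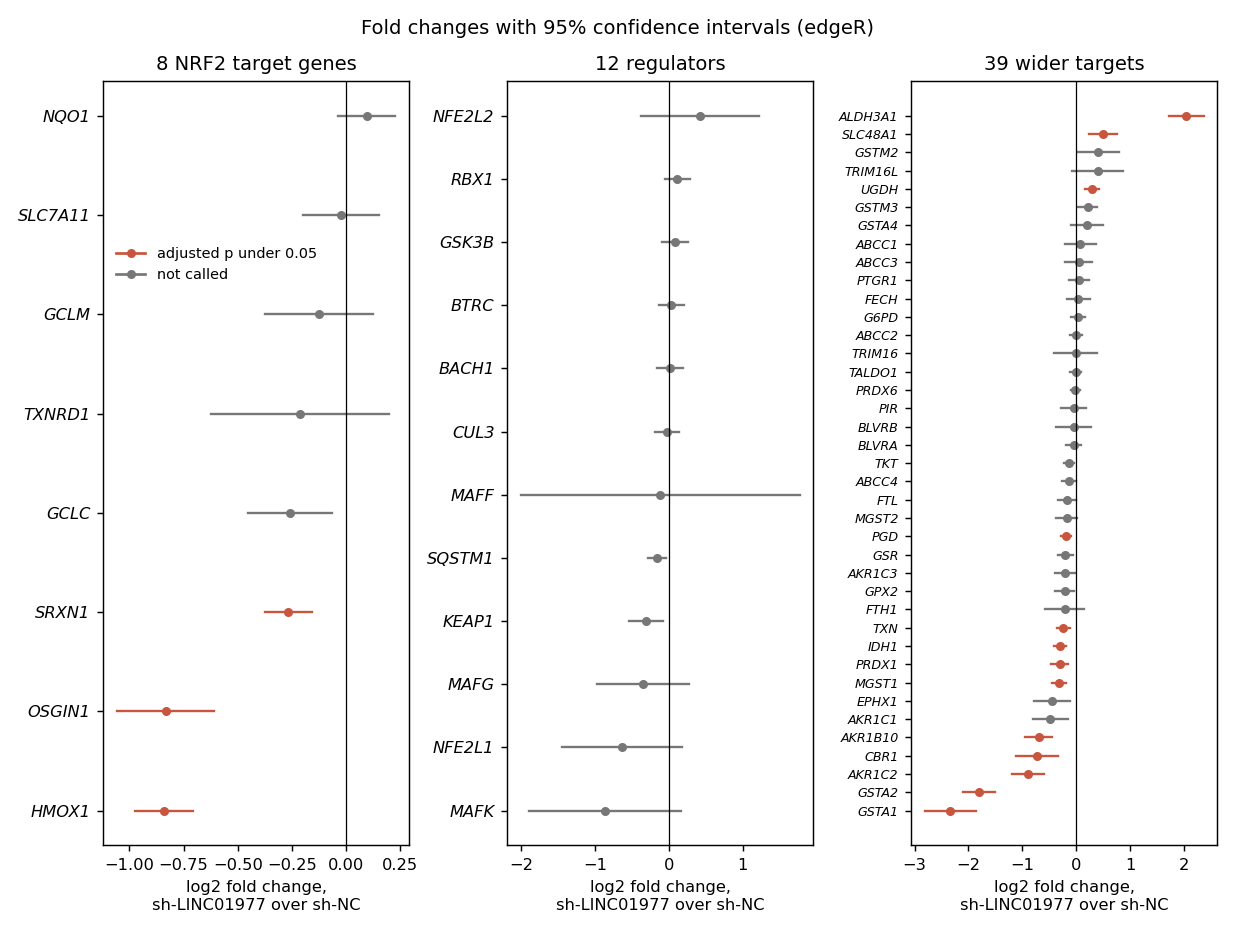
Log2 fold change of sh-LINC01977 over sh-NC with its 95% confidence interval (edgeR) for the 8 NRF2 target genes, 12 regulators and 39 wider targets, with red marking an adjusted p under 0.05; each panel has its own horizontal scale. HMOX1 and OSGIN1 lie near -0.84 and -0.83, no regulator is called, and the wider targets run from -2.34 for GSTA1 to 2.04 for ALDH3A1.

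The regulators of the pathway were read from the same fit. Of 12 genes for NRF2, its relative NFE2L1, its turnover, and its small MAF partners and repressor, 0 were called in either direction by edgeR, with 2 at an unadjusted p under 0.05 and 1 called by DESeq2. Over all tested genes these shares were 15.1%, 30.5% and 21.1%. NFE2L2 measured 9.98, 10.4 and 6.50 FPKM in sh-NC and 19.0, 7.87 and 10.9 FPKM in sh-LINC01977. Its highest knockdown library was 2.38 times the lowest in CPM, and the groups overlapped. The log2 fold change was 0.42 with a 95% confidence interval of -0.38 to 1.23 (edgeR adjusted p = 0.45). Without sh-LINC01977 replicate 1, the highest library, it was -0.0026 (edgeR adjusted p = 0.995).

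KEAP1, the adaptor that presents NRF2 for destruction, measured 11.9, 13.5 and 14.3 FPKM in sh-NC and 9.85, 11.5 and 12.1 FPKM in sh-LINC01977. Its ranges overlapped in FPKM and were apart in CPM. The log2 fold change was -0.31 ± 0.098 (SE, n = 3 per group, edgeR adjusted p = 0.082), and DESeq2 called it (adjusted p = 0.029). BACH1, a repressor that competes with NRF2 at HMOX1 and other targets, measured 3.01, 3.29 and 3.54 FPKM in sh-NC and 3.43, 3.32 and 3.65 FPKM in sh-LINC01977. The groups overlapped, with a log2 fold change of 0.01 and a 95% confidence interval of -0.16 to 0.19 (edgeR adjusted p = 0.92).

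The following regulators were chosen after their values were seen, for their spread. In 5 of the 12, NFE2L1, NFE2L2, MAFF, MAFG and MAFK, the highest library of a group was at least 1.5 times the lowest in CPM, a ratio reached by 10.5% of the 7807 tested genes with a mean count of at least 1000. MAFF, whose mean count lay below 1000, measured 2.51, 2.35 and 0.491 FPKM in sh-NC and 0.383, 2.53 and 2.25 FPKM in sh-LINC01977. One library in each group was low, and the libraries do not carry the same replicate number. MAFK measured 6.27, 5.45 and 6.41 FPKM in sh-NC and 5.01, 1.32 and 4.18 FPKM in sh-LINC01977, with a log2 fold change of -0.86 ± 0.43 (SE, n = 3 per group, edgeR adjusted p = 0.23). NFE2L1 measured 22.4, 33.5 and 25.6 FPKM in sh-NC and 28.9, 11.9 and 14.1 FPKM in sh-LINC01977, and was called only without sh-LINC01977 replicate 1 (log2 fold change -1.13, edgeR adjusted p = 0.021).

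**Figure D3:**
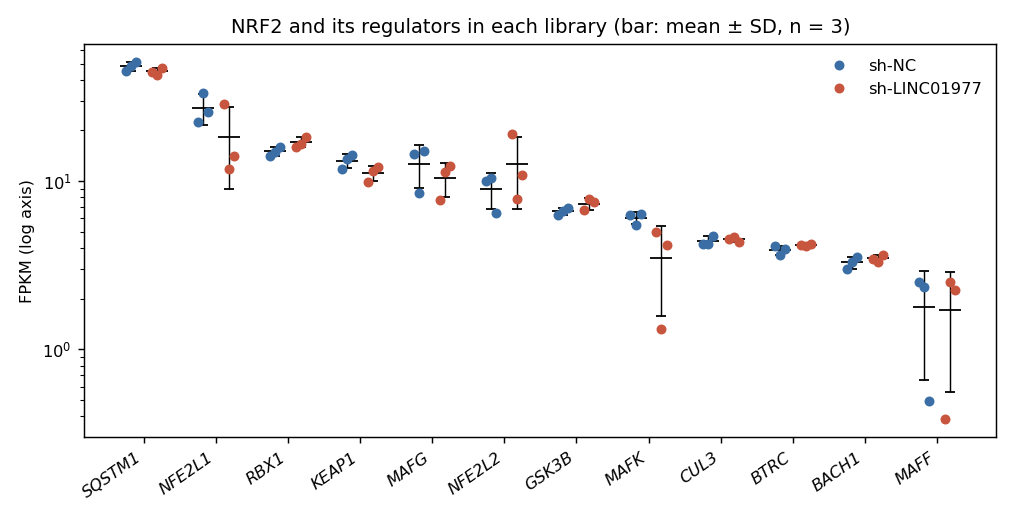
FPKM of NFE2L2 and 11 of its regulators and partners in each library (log axis), with sh-NC in blue and sh-LINC01977 in red; black bars are the mean ± SD of 3 libraries. The libraries of a group scatter widely for MAFF, MAFK, NFE2L2 and NFE2L1 and lie close together for CUL3, BTRC and BACH1.

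A wider list of 42 NRF2 targets was measured, of which 39 passed the filter on low values (a mean of at least 0.5 FPKM). In the edgeR test 10 were lower (8.07% of all tested genes), 3 were higher (7.05% of all tested genes) and 26 did not pass. The median log2 fold change was -0.13, beside -0.0010 over all tested genes. By role, 3 of 9 tested genes of glutathione use were lower and 0 higher, 2 of 3 thioredoxin genes were lower, and 2 of 5 genes of NADPH supply were lower. Of 9 tested genes for carbonyl and quinone detoxification, 3 were lower and 2 higher. Of 6 heme and iron genes 1 was higher, and of 4 efflux pumps 0 were called. Some of these calls were lost with 1 library left out. There the edgeR adjusted p reached 0.077 for TXN, 0.083 for PRDX1 and 0.072 for PGD, which were called lower. It reached 0.076 for SLC48A1, the heme and iron gene called higher, and at most 0.032 for IDH1 of NADPH supply. Past the study's threshold were 3 of the 39, GSTA1, GSTA2 and ALDH3A1, against 2.6% of all tested genes.

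GSTA1, an alpha class glutathione transferase of the liver, measured 18.3, 23.3 and 23.4 FPKM in sh-NC and 4.35, 5.53 and 3.50 FPKM in sh-LINC01977. It fell by 2.34 on the log2 scale (SE 0.20, edgeR adjusted p = 0.0013). GSTA2, its close copy, measured 5.80, 5.30 and 5.64 FPKM in sh-NC and 1.75, 1.68 and 1.56 FPKM in sh-LINC01977. It fell by 1.81 (SE 0.12, edgeR adjusted p = 0.00073), and since both sequences are nearly identical the split of reads between them is uncertain. ALDH3A1, an aldehyde dehydrogenase, went the other way. It measured 0.747, 0.634 and 0.748 FPKM in sh-NC and 2.84, 3.46 and 3.01 FPKM in sh-LINC01977, a rise of 2.04 on the log2 scale (SE 0.14, edgeR adjusted p = 0.00069).

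The aldo-keto reductases AKR1C2 and AKR1B10 and the carbonyl reductase CBR1, which detoxify carbonyl compounds, were lower. AKR1C2 measured 237, 235 and 310 FPKM in sh-NC and 136, 138 and 166 FPKM in sh-LINC01977, and fell by 0.89 on the log2 scale (edgeR adjusted p = 0.0054). Reads of AKR1C2 can be shared with related genes such as AKR1C1 and AKR1C3, so its value is uncertain. AKR1C1 and AKR1C3 had log2 fold changes of -0.48 and -0.21 and were not called (edgeR adjusted p = 0.063 and 0.13). AKR1B10 measured 314, 308 and 399 FPKM in sh-NC and 206, 216 and 238 FPKM in sh-LINC01977, and fell by 0.69 (edgeR adjusted p = 0.0079). CBR1 measured 9.11, 9.57 and 9.93 FPKM in sh-NC and 4.77, 5.68 and 7.62 FPKM in sh-LINC01977, and fell by 0.73 (edgeR adjusted p = 0.028). In each of these 3 genes, which were named because they were called, every knockdown library lay below every control. In CPM the groups did not overlap for 37.1% of all tested genes. CBR1 lost its call in 4 of the 6 fits that left out 1 library, those without any 1 of the sh-NC libraries or without sh-LINC01977 replicate 2, with edgeR adjusted p up to 0.091.

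The 8 paralogues and partners were also measured, and 7 passed the filter, with ME3 below it. Of these 7, 1 was called, beside 15.1% of all tested genes. The gene called was SLC3A2, the heavy chain that carries SLC7A11 and other amino acid transporters to the membrane. It measured 35.4, 38.0 and 37.3 FPKM in sh-NC and 29.3, 28.8 and 30.2 FPKM in sh-LINC01977, and fell by 0.39 on the log2 scale (SE 0.040, edgeR adjusted p = 0.0021). HMOX2, the constitutive heme oxygenase, measured 10.1, 10.8 and 10.5 FPKM in sh-NC and 7.85, 9.61 and 9.80 FPKM in sh-LINC01977. Its log2 fold change was -0.27 ± 0.093 (SE, n = 3 per group, edgeR adjusted p = 0.10). The mitochondrial malic enzyme ME2 had a log2 fold change of 0.43 ± 0.17 (edgeR adjusted p = 0.14), and OSGIN2, NQO2, TXNRD2 and TXNRD3 had values of 0.10, -0.08, -0.07 and 0.10.

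Ratios within a library do not depend on the scaling between libraries, and 6 were put to a two-sided exact permutation test, for which 3 against 3 libraries give no p under 0.1. OSGIN1 stood 5.76-fold above OSGIN2 in sh-NC and 3.01-fold above it in sh-LINC01977, a log2 difference of -0.93 (exact permutation p = 0.1, adjusted over 6 ratios 0.2). In FPKM, HMOX1 stood 2.24-fold above HMOX2 in sh-NC and 1.52-fold in sh-LINC01977, a log2 difference of -0.56 (exact permutation p = 0.1, adjusted 0.2). In CPM the means of HMOX1 and HMOX2 were 71.2 and 50.2 in sh-NC, and 39.8 and 41.6 in sh-LINC01977. The log2 difference between groups was -0.56 in CPM too, so the folds depend on the gene lengths and the difference does not. The ratio of SLC7A11 to SLC3A2 was 0.128 in sh-NC and 0.165 in sh-LINC01977, a log2 difference of 0.37 (exact permutation p = 0.1, adjusted 0.2). In these 3 of 6 ratios the groups did not overlap, and SLC7A11 itself was level while SLC3A2 fell. Taken singly, 37.1% of all tested genes did not overlap in CPM, and no such share was computed for ratios. The groups overlapped in the ratios of GCLC to GCLM, NQO1 to NQO2 and TXNRD1 to TXNRD2, with log2 differences of -0.15, 0.18 and -0.17.

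**Figure D4:**
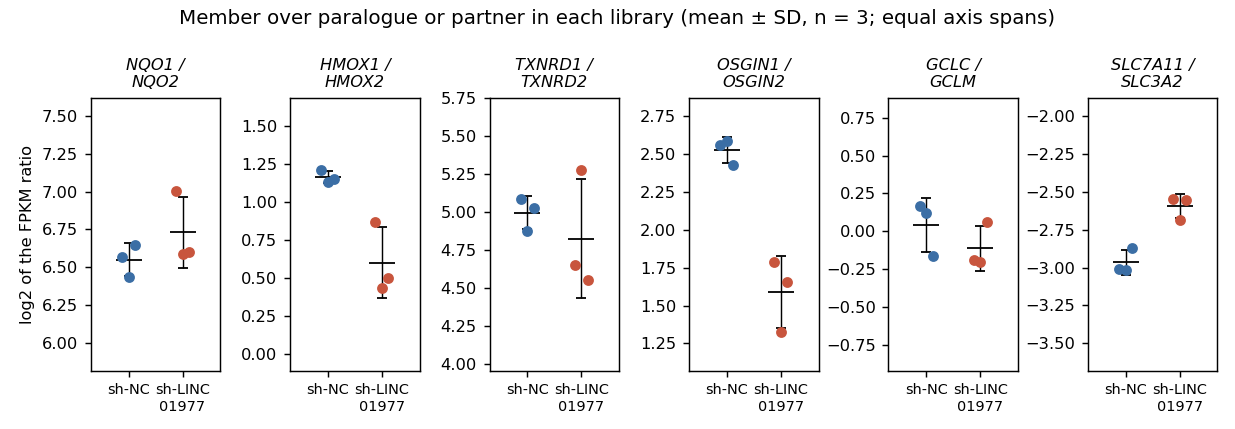
Log2 of the FPKM ratio of an NRF2 target gene to its paralogue or partner in each library, with sh-NC in blue and sh-LINC01977 in red; black bars are the mean ± SD of 3 libraries, and every panel spans the same range of log2 units. The groups lie apart for HMOX1 over HMOX2, OSGIN1 over OSGIN2 and SLC7A11 over SLC3A2, and overlap in the other 3 ratios.

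Antioxidant enzymes outside the NRF2 list and genes of the ATF4 amino acid stress response, which shares SLC7A11 with NRF2, were read beside them. Of 11 antioxidant enzymes 3 were lower and 0 higher, beside 8.07% and 7.05% of all tested genes. Catalase (CAT) fell by 0.40 on the log2 scale (edgeR adjusted p = 0.0025), the lipid peroxide reductase GPX4 by 0.32 (edgeR adjusted p = 0.015) and the mitochondrial peroxiredoxin PRDX3 by 0.17 (edgeR adjusted p = 0.045). CAT was called in each of 16 other settings, GPX4 in 12 and PRDX3 in 4, with adjusted p up to 0.056 for GPX4 and 0.14 for PRDX3. Of 9 ATF4 genes, 8 were measured and tested, with 4 lower and 0 higher against the same background. The amino acid transporter SLC7A5, which also pairs with SLC3A2, fell by 0.73 (edgeR adjusted p = 0.0014), and DDIT3, ATF4 and PSAT1 fell by 0.35, 0.34 and 0.25 (edgeR adjusted p = 0.026, 0.0015 and 0.012). SLC7A5 and ATF4 were called in each of 16 other settings, PSAT1 in 13 and DDIT3 in 8, with adjusted p up to 0.054 for PSAT1 and 0.084 for DDIT3.

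**Figure D5:**
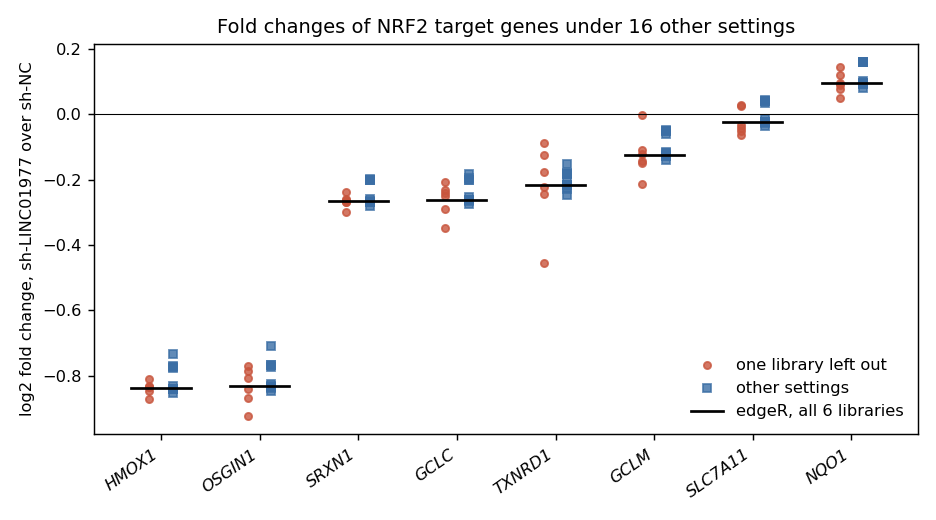
Log2 fold change of sh-LINC01977 over sh-NC for the 8 NRF2 target genes with all 6 libraries in edgeR (black line), with 1 library left out (red circles) and under other scalings, filters, tools and designs (blue squares). HMOX1 stays between -0.87 and -0.73 and OSGIN1 between -0.92 and -0.71, TXNRD1 reaches -0.45 without 1 library, and SLC7A11 lies on both sides of 0.

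Across 16 other settings HMOX1, OSGIN1 and SRXN1 were called lower in each. GCLC was called in 2 of 16, TXNRD1 in 1 of 16, and GCLM, SLC7A11 and NQO1 in 0 of 16. The log2 fold change of GCLM came as near to 0 as -0.0018 without sh-NC replicate 3.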

How the data were processed

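HepG2 cells with a control hairpin (sh-NC) or a hairpin against LINC01977 (sh-LINC01977) were profiled by RNA sequencing (TRIzol extraction, Illumina HiSeq), with groups and replicate numbers taken from the labels. The submitters' processing notes name bcl2fastq 2.0, HISAT2, StringTie, DESeq2, limma and the build hg38, without their roles, and the annotation release is not given in the sources used here. The authors deposited whole-number counts per gene without normalization, and FPKM values. The gene lengths behind the FPKM are not given in the sources used here. Every deposited column was mapped to a library.

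In R 4.3.3, edgeR 4.0.16 was applied to the counts of 13452 genes with a mean of at least 0.5 FPKM, by its quasi-likelihood test after TMM scaling, and p-values were adjusted by Benjamini-Hochberg. CPM are counts scaled to the library total times its TMM factor. LINC01977, below this filter, was read from a fit of all genes. The code was tested on simulated data. Alternatives were DESeq2 1.42.0, limma 3.58.1 on log2(FPKM + 0.1, 1 or 0.01), other scalings and filters, a replicate block and leaving out each library. Ratios used FPKM and exact permutation (scipy 1.17.1), and the ratio of ME1 to ME2 was not run.

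The members and lists were chosen with earlier results of these data known. Named were all members, NFE2L2, KEAP1, BACH1 and any regulator called, the 6 wider targets called with the largest changes, the paralogues and partners, at most 4 called genes of each other list, and the 3 genes nearest in profile to the member with the largest change. Promoter windows are from RefSeq (GRCh38), and the 8 gene intervals match GENCODE.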

Additional observations from a re-analysis of the deposited data

How the results depend on the processing

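Over 16 alternative settings, 119 of 128 values of the NRF2 target genes kept their direction and their side of the threshold. None lost a call, 3 gained one and 6 changed sign. The gains were GCLC with DESeq2 (-0.26) and without sh-LINC01977 replicate 3 (-0.35), and TXNRD1 without sh-LINC01977 replicate 2 (-0.45). The sign changes were all of SLC7A11, which was 0.043 with library totals, 0.041, 0.034 and 0.041 with limma at pseudocounts of 0.1, 1 and 0.01, and between -0.064 (without sh-NC replicate 1) and 0.030 (without sh-NC replicate 3) with 1 library left out, with 0.026 without sh-LINC01977 replicate 2. The number of the 8 genes called lower was 3 or 4 and the number called higher 0 in each setting. Of the wider targets 7 to 13 were lower and 2 to 4 higher. The regulators called lower rose from 0 to 1 with DESeq2 and with the replicate block (KEAP1 in both) and without sh-LINC01977 replicate 1 (NFE2L1), and stayed at 0 without each of the other libraries. The cause was not tested.

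Over all tested genes, 948 were called higher and 1085 lower. Library totals gave 1455 higher and 768 lower, and limma with a pseudocount of 0.01 gave 722 lower. The share called higher moved from 46.6% to 65.5% with library totals and to between 63.5% and 63.7% with limma. Library totals moved the median log2 fold change of all genes to 0.065 and that of the 8 genes from -0.24 to -0.17. Leaving out 1 library gave 549 to 669 higher and 627 to 738 lower, with fewer samples in the fit.

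Same-numbered libraries showed no shared deviation from their group means, with correlations of -0.0286, 0.0174 and 0.0552. The labels do not say whether they were prepared together, and these correlations cannot settle it. The replicate block gave 636 genes higher and 754 lower, 3 of the 8 NRF2 target genes lower, and a log2 fold change of -0.84 for HMOX1 (edgeR adjusted p = 0.0091). Low counts limit what can be read for genes such as LINC01977, whose counts are near 0.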
